A study of Rattus norvegicus with 24 samples.

Results

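The genes described here encode the enzymes that make cholesterol and long-chain fatty acids, together with the proteins that control their transcription. They were taken from a list of 30 rat gene symbols, of which 29 had a value, each from 1 transcript. Of these, 28 were among the 5750 named genes that the authors kept as expressed. Acaca was read from the tables of the whole array, which hold 9627 named genes, and Srebf1 had no named transcript and is not analysed here. By role, the 29 genes comprised 7 enzymes of the mevalonate steps (Acat2, Hmgcs1, Mvk, Pmvk, Mvd, Idi1 and Fdps), 11 of the sterol steps (Fdft1, Sqle, Lss, Cyp51, Tm7sf2, Msmo1, Nsdhl, Hsd17b7, Ebp, Sc5d and Dhcr7) and 3 regulators (Srebf2, Insig1 and Insig2). The others were 3 enzymes of fatty acid synthesis (Acly, Acaca and Fasn) and 5 desaturases and elongases (Scd, Fads1, Fads2, Elovl5 and Elovl6).

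Cholesterol is built from acetyl-CoA, first through the mevalonate steps to farnesyl diphosphate, and then through squalene and lanosterol in the sterol steps. When sterol in the endoplasmic reticulum is low, SREBP transcription factors are released from their anchors, the INSIG proteins, and bind promoters of genes along the whole route, usually together with NF-Y at CCAAT boxes and Sp1 at GC boxes. In nerve, myelin is the largest store of cholesterol, and Schwann cells, oligodendrocytes and astrocytes make most of it in place because little crosses from the blood.

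The samples were spiral ganglia, which hold the cell bodies of the auditory neurons with their Schwann cells and satellite cells, from Sprague-Dawley rats of both sexes. Deaf rats had been given daily intraperitoneal kanamycin, which destroys hair cells, at 400 mg/kg between postnatal days 8 and 16 (P8 to P16). Hearing rats were uninjected littermates, so the groups also differed in having been injected. Ganglia were collected at P32 or P60 and divided into an apical portion (apex) and a basal portion (base) after removal of the organ of Corti. Each of the 8 groups of age, hearing status and portion had 3 replicates, and each replicate pooled 4 to 6 ganglia. Amplified, Cy3-labelled RNA was hybridised to 1-colour NimbleGen arrays. Replicate 1 of every group was run on one array platform of 8 samples, and replicates 2 and 3 on another of 16, so that platform and replicate number cannot be told apart.

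Values are log2 of the deposited normalized intensity, and a difference is a log2 difference from a limma fit over all 24 samples with a term for platform, given with its standard error (SE). That fit counts the apex and base of the same replicate number as separate samples. Where the portions vary together, its SE for a comparison over both portions may be too small. A gene passed the test where its two-sided limma p, adjusted by Benjamini-Hochberg over all genes, was under 0.05. Since each gene has its own probes, levels were compared between samples and never between genes. Median intensity per sample ran from 1997 to 2263 and correlations between samples from 0.733 to 0.981, and precision is limited by how many arrays there were. Schwann cell markers were present throughout, with a summed intensity of the 13 measured markers of 14 between 185834 and 259235. Neuron markers (11 of 11 measured) summed to between 89434 and 224899. The apical sample P32 hearing replicate 1 stood apart from the other 2 of its group in markers of other cells. Its 4 astrocyte markers summed to 31338, against 3224 and 7060, and its 9 macrophage markers to 103867, against 35412 and 37953. Calls and counts of the synthesis genes that changed without this sample are given with and without it. Marker calls are given only with it.

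The promoters of the 3 genes that passed the test in any comparison are shown with CCAAT and GGGCGG marked. These motifs are not particular to this family. None of the 3 windows holds an exact match to TCACNCCAC, the only form of the sterol regulatory element searched here. Each is the 250 bases before the transcript start used in the RefSeq table, in the GRCr8 build, written 5′ to 3′ on the gene's strand, which is the minus strand for all 3. Capitals mark CCAAT or GGGCGG on either strand. Tm7sf2 lies at chr1:212785217-212789572 with its window at chr1:212789542-212789791, Sc5d at chr8:51526669-51538277 with its window at chr8:51538278-51538527, and Fads2 at chr1:216132277-216172190 with its window at chr1:216172034-216172283. For Tm7sf2 and Fads2 that start lies inside the gene's outer bounds.
Tm7sf2: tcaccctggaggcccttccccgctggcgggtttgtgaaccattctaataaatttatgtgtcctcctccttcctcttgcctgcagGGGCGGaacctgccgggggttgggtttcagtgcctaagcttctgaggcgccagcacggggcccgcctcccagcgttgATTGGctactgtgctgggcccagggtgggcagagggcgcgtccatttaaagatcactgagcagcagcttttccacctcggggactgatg
Sc5d: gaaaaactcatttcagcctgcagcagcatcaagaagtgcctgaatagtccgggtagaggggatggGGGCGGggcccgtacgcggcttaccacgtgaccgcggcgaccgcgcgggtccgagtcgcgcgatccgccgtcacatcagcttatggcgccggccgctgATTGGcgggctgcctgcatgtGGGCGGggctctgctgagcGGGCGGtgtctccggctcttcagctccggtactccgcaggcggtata
Fads2: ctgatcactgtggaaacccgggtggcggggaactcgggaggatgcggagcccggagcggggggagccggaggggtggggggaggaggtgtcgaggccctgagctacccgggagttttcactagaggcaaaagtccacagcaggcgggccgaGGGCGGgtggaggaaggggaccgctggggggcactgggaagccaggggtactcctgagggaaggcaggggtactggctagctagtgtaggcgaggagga

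Such a window was in the table for 24 of the 30 listed symbols, Srebf1 among them. Each symbol was counted once, whereas the share of all windows counts every window, whether or not its gene was kept as expressed. The shares below therefore differ in unit and in the genes they cover. CCAAT occurred in 19 of the 24 (79.2%), against 34.0% of all 33469 windows in the table. GGGCGG also occurred in 19 of the 24 (79.2%), against 30.5% of all windows. An exact match to TCACNCCAC occurred in 0 of the 24 and in 0.974% of all windows. Other forms of the sterol regulatory element were not searched, so their absence is not shown. All were searched on both strands, and where sites of different motifs shared bases each was counted. Of the 3 promoters printed, all hold GGGCGG, and those of Tm7sf2 and Sc5d also hold CCAAT, read as ATTGG on the printed strand. These matches describe the letters of these windows and not binding.

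Between the portions of the hearing ganglion, cholesterol synthesis genes had higher means in the base, and 3 of the 29 genes passed the test. All 18 mevalonate and sterol enzymes had a difference above 0, with a median of 0.39, whereas 42.8% of all genes were above 0 and their median was -0.04. Without P32 hearing apex replicate 1, 17 of the 18 were above 0, with a median of 0.31. Over the 29 genes the median was 0.32, and 25 were above 0. Those that passed were Tm7sf2, Sc5d and Fads2, all higher in the base. These 3 compare with 1.5% of all genes called in either direction and 1.43% called higher. At an unadjusted p under 0.05 there were 6 of 29 (20.7%), against 9.44% of all genes. The mean of the 18 enzymes in hearing rats at P32 was 11.95, 12.09 and 12.63 in the apex and 12.59, 12.53 and 12.91 in the base, which overlapped. At P60 it was 12.16, 12.12 and 12.19 in the apex and 12.58, 12.21 and 12.66 in the base, without overlap. The genes and role groups were chosen with earlier results of these data known, and counts by sign were added after seeing the data. Here and below, such counts set against all genes describe the values and are not a test.

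**Figure D1:**
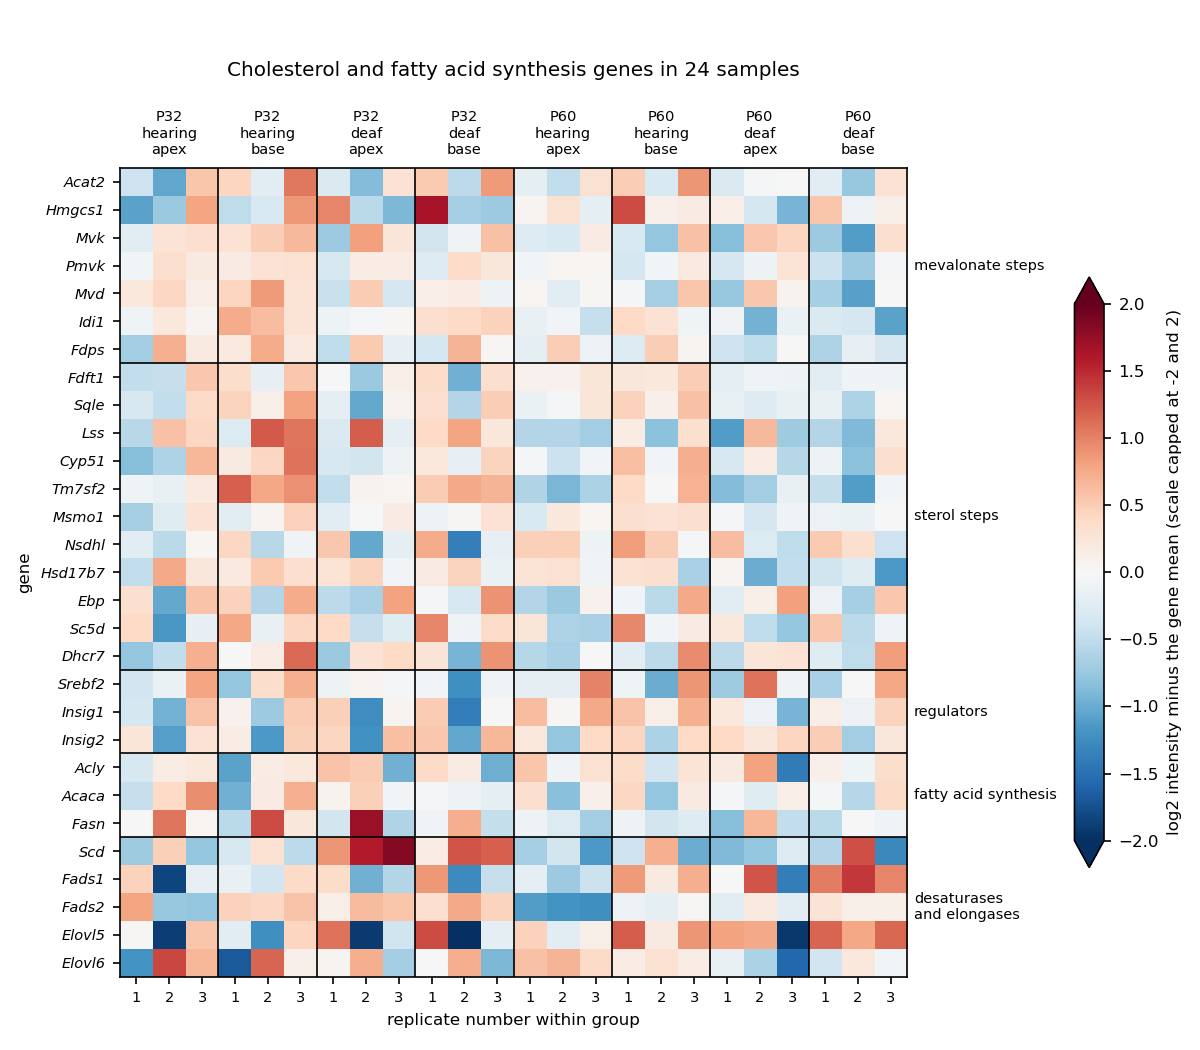
Heat map of the 29 measured genes (rows, grouped by role) in the 24 samples (columns, by group and replicate), as log2 intensity minus the gene's mean over all samples, capped at 2 in either direction. The basal columns of hearing rats are mostly above the gene mean for the 18 mevalonate and sterol enzymes, and the replicates of a group differ within themselves for many genes.

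Tm7sf2, a sterol reductase acting after the demethylation of lanosterol, separated the portions most clearly. In the apex of hearing rats its log2 intensity was 11.33, 11.26 and 11.61 at P32 and 10.81, 10.49 and 10.78 at P60. In the base it was 12.61, 12.18 and 12.33 at P32 and 11.81, 11.42 and 12.11 at P60. Every basal sample lay above every apical sample of its age. The difference was 1.03 ± 0.19 (SE), a 2.04-fold higher intensity, with a limma adjusted p of 0.0118. It was 1.14 within the 8-sample platform and 0.97 within the 16-sample platform, where fitted alone its limma adjusted p was 0.170. It passed in all 12 fits that left out 1 hearing sample.

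Sc5d, which introduces a double bond late in cholesterol synthesis, varied between replicates but moved the same way in each. In the apex of hearing rats it read 12.60, 11.03 and 12.04 at P32 and 12.45, 11.59 and 11.55 at P60. In the base it read 12.98, 12.05 and 12.63 at P32 and 13.16, 12.15 and 12.37 at P60. The portions overlapped at both ages, yet the basal sample was above the apical sample of the same replicate number in all 6 pairs. The difference was 0.68 ± 0.16 (limma adjusted p = 0.0423), and 0.54 and 0.74 within the platforms of 8 and 16 samples. This call was lost without the platform term (limma adjusted p = 0.645), on the 16-sample platform alone (0.333) and with p-values adjusted over the whole-array tables (0.0526), and over the 12 fits that left out 1 hearing sample it was made in 2.

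Fads2, the desaturase that starts the synthesis of polyunsaturated fatty acids, was higher in the base at both ages but not in every pair. In the apex of hearing rats it read 10.09, 8.55 and 8.54 at P32 and 8.19, 8.11 and 8.08 at P60. In the base it read 9.76, 9.72 and 9.87 at P32 and 9.18, 9.11 and 9.33 at P60. The P60 groups did not overlap, and at P32 the apical replicate 1 lay above all 3 basal samples. The difference was 0.90 ± 0.21 (limma adjusted p = 0.0373), 0.33 within the 8-sample platform and 1.19 within the 16-sample platform. Without P32 hearing apex replicate 1, the sample that stood apart in glial and macrophage markers, it was 1.18 with a limma adjusted p of 5.2e-05, and Tm7sf2 and Sc5d passed as well, while the share of all genes called went to 5.51%. That was the 1 of the 12 such fits in which it passed, and the adjusted p in the others reached up to 0.140. The call was also lost after a further quantile normalization (0.82, limma adjusted p = 0.058) and with trended, robust eBayes (limma adjusted p = 0.075).

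**Figure D2:**
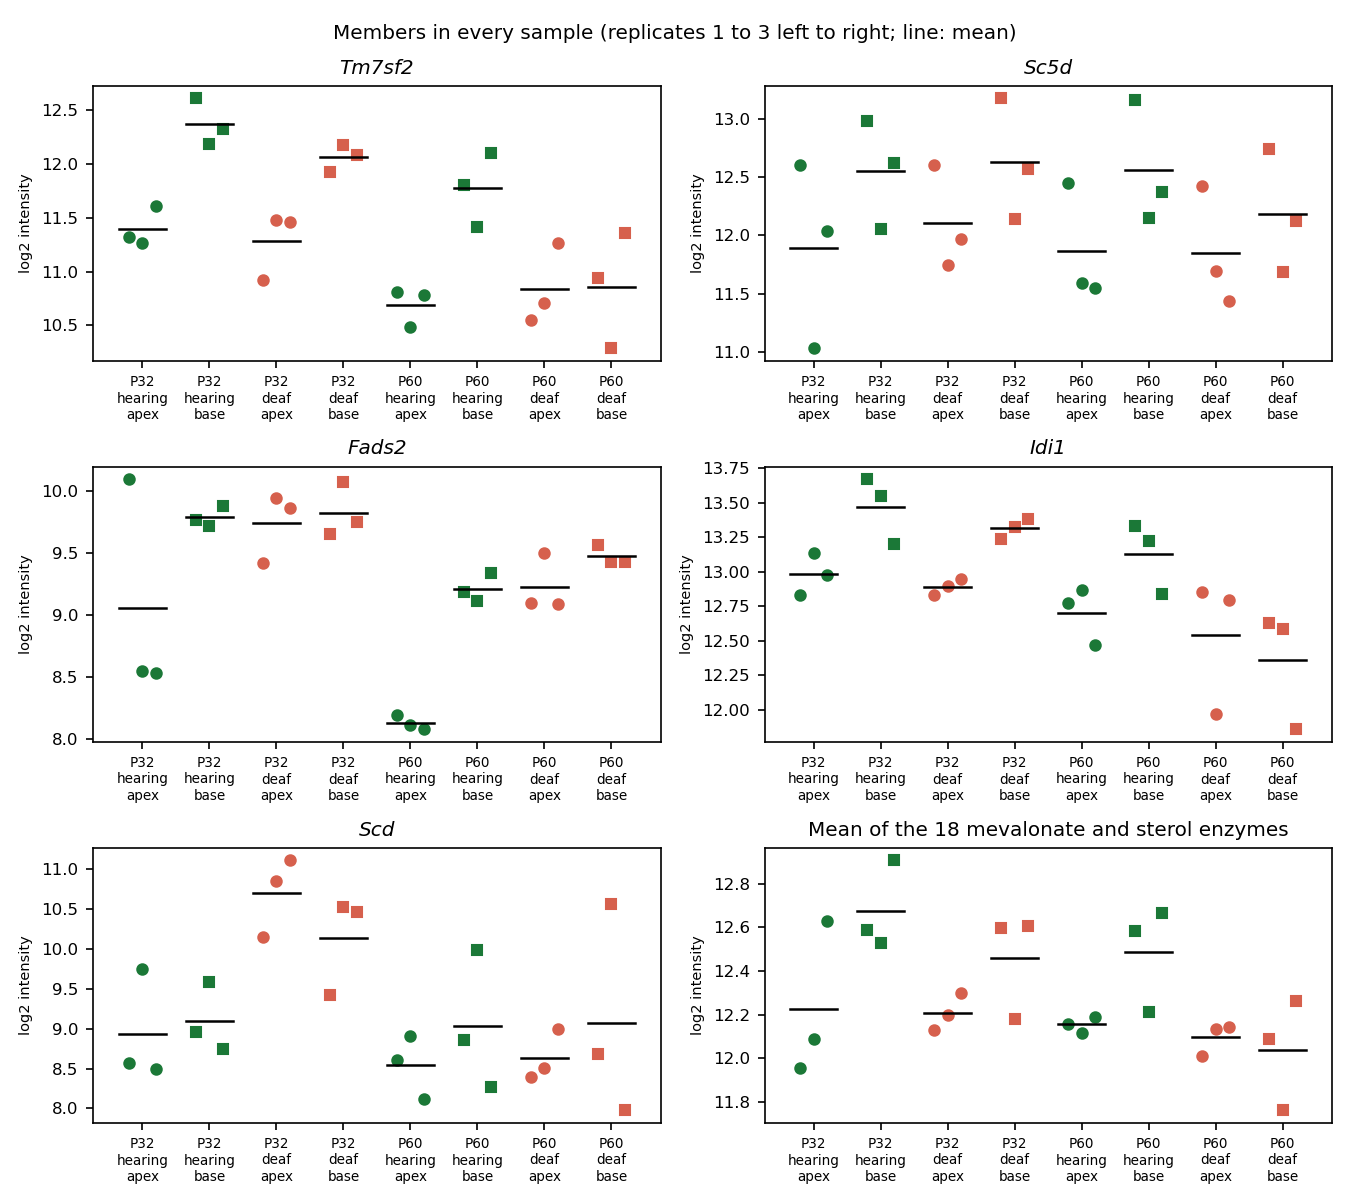
Log2 intensity in each sample of Tm7sf2, Sc5d, Fads2, Idi1, Scd and the mean of the 18 mevalonate and sterol enzymes, by age and hearing status. Circles are apical and squares basal samples, green hearing and red deaf, with a line at each group mean. Every basal Tm7sf2 value of hearing rats lies above the apical values of its age, and Fads2 of the P60 hearing apex (8.08 to 8.19) lies below all other groups.

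The other enzymes had smaller or more variable differences between portions. Cyp51, which demethylates lanosterol, had a median of 12.43 in the 6 apical samples of hearing rats (11.82 to 13.34) and of 13.19 in the 6 basal ones (12.62 to 13.77). The ranges overlapped, and its difference of 0.71 ± 0.26 did not pass the test (limma adjusted p = 0.293). Idi1, which isomerises isopentenyl diphosphate, read 12.83, 13.13 and 12.98 in the apex and 13.67, 13.55 and 13.20 in the base at P32, and 12.77, 12.87 and 12.47 against 13.33, 13.22 and 12.84 at P60. Its portions did not overlap at P32 and did at P60, and its difference was 0.46 ± 0.17 (limma adjusted p = 0.296). Acat2, which joins acetyl-CoA units at the start of the route, differed by 0.60 ± 0.33, and Dhcr7, the final reductase, by 0.54 ± 0.34. Sqle, the squalene epoxidase, differed by 0.48 ± 0.23. Hsd17b7, a reductase of sterol demethylation, was lowest of the 18 at 0.0026 ± 0.25.

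The enzymes of fatty acid synthesis had values around 0. Fasn, the fatty acid synthase, differed by 0.03 ± 0.37 between the portions of hearing rats, and Acly, which supplies cytosolic acetyl-CoA, by -0.21 ± 0.37. Acaca, the acetyl-CoA carboxylase, differed by -0.12 ± 0.31. Among desaturases and elongases, Fads1, which acts after Fads2, differed by 0.75 ± 0.41. Elovl6, an elongase of saturated chains, differed by -0.38 ± 0.44 and was lower in the base in all 6 pairs. The regulators Srebf2, Insig1 and Insig2 differed by -0.13 ± 0.36, 0.10 ± 0.34 and 0.07 ± 0.38, so the median of the 3 regulators was 0.07. None of these genes passed the test, and differences between roles were not tested.

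Pairs of the same replicate number showed how regular the difference was. Acat2, Idi1, Sqle, Cyp51, Tm7sf2, Msmo1, Ebp, Sc5d and Dhcr7, 9 of the 29 genes (31.0%), were higher in the base in all 6 hearing pairs, against 6.12% of all genes. Only Elovl6 (3.45%) was lower in all 6, against 10.4% of all genes. At P32, 18, 15 and 16 of the 18 enzymes were higher in the base in replicates 1, 2 and 3, against 40.5%, 51.8% and 47.8% of all genes. At P60 the counts were 14, 13 and 17, against 47.5%, 41.5% and 47.5%. With replicate number as a block within each age, 5 of the 29 genes passed (Acat2, Fads2, Sc5d, Sqle and Tm7sf2), against 3.6% of all genes. With the paired portions as a random block (correlation 0.629), 8 passed, those 5 with Cyp51, Idi1 and Msmo1, against 9.37% of all genes. On the 16-sample platform alone only Fads2 passed (1.19, limma adjusted p = 0.0157), against 0.939% of all genes.

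In deaf rats no synthesis gene passed between the portions without a block. The median over the 29 genes was 0.07, against -0.04 over all genes, and 13 of the 18 mevalonate and sterol enzymes were above 0. The ages differed in the pairs of the same replicate number. At P32, 17, 10 and 17 of the 18 were higher in the deaf base in replicates 1, 2 and 3, against 50.9%, 41.0% and 45.1% of all genes. At P60 the counts were 10, 7 and 11, against 52.1%, 43.0% and 50.3%. The limma test called 0 of the 29, against 2.02% of all genes, and at an unadjusted p under 0.05 there was 1 (3.45%, against 10.3%). Tm7sf2 read 10.92, 11.48 and 11.46 in the deaf apex and 11.92, 12.17 and 12.09 in the deaf base at P32. At P60 it read 10.55, 10.71 and 11.26 in the apex and 10.94, 10.29 and 11.36 in the base. The P32 portions did not overlap and the P60 portions did, with a difference over both ages of 0.40 ± 0.19 (limma adjusted p = 0.483).

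Sc5d was the gene with the smallest p between the deaf portions. It read 12.60, 11.74 and 11.97 in the apex and 13.17, 12.14 and 12.57 in the base at P32, and 12.42, 11.70 and 11.44 against 12.75, 11.68 and 12.13 at P60. The groups overlapped at both ages, and the difference was 0.43 ± 0.16 (limma adjusted p = 0.279). It passed with replicate number as a block within each age (limma adjusted p = 0.0455, with 4.64% of genes called). With portions as a random block both Sc5d and Tm7sf2 passed (limma adjusted p = 0.0142 and 0.0422), with 10.2% of genes called, though the P60 deaf portions did not meet the criterion for pairing. Fads2, with 9.41, 9.94 and 9.86 in the P32 deaf apex and 9.65, 10.07 and 9.75 in the base, differed by 0.17 ± 0.21 over both ages. At P60 it read 9.09, 9.50 and 9.08 in the deaf apex and 9.56, 9.42 and 9.42 in the base, again overlapping. Fads1 and Mvk were also among the genes with the smallest p between the deaf portions and did not pass. With 1 sample left out at a time, their differences were 0.34 to 1.03 and -0.47 to -0.09.

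**Figure D3:**
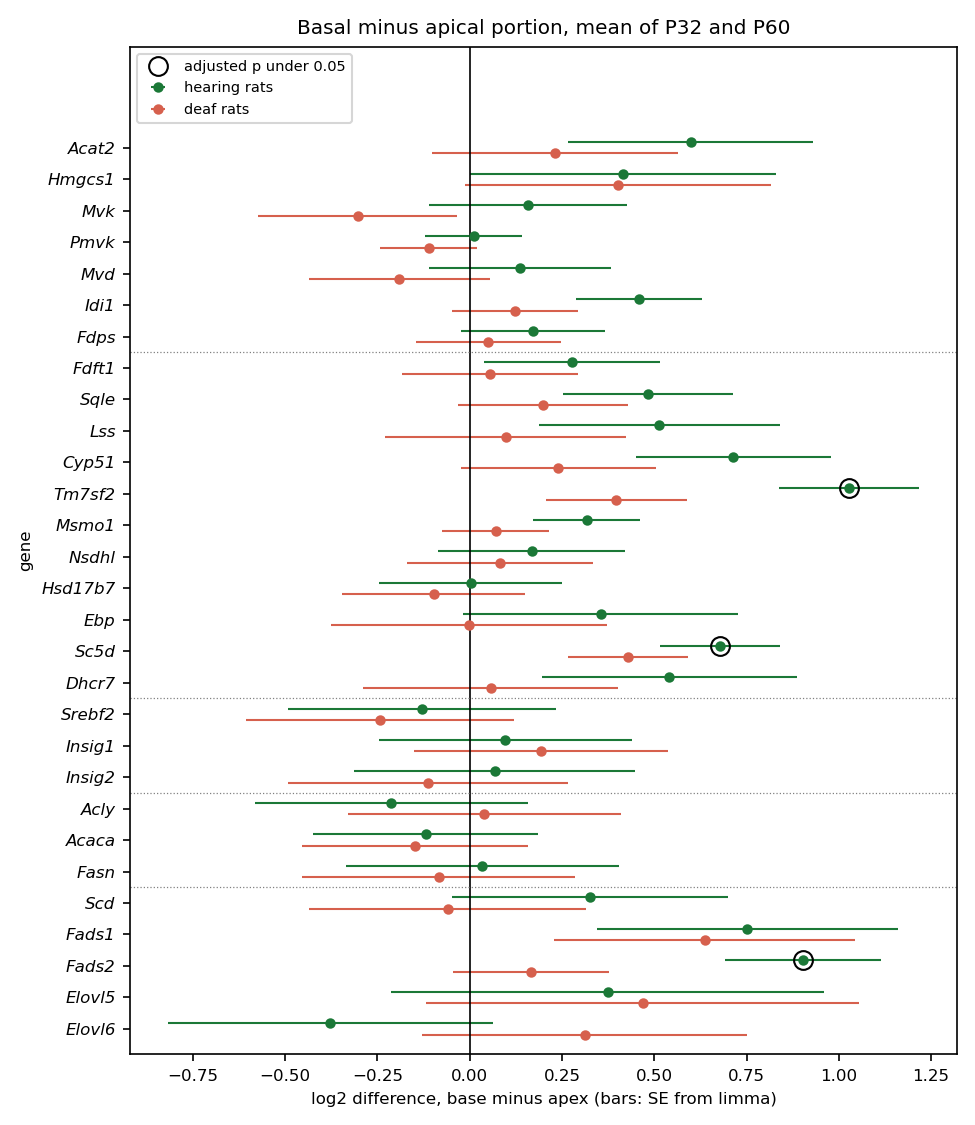
Base minus apex log2 difference with its SE for each of the 29 genes, in hearing (green) and deaf (red) rats, from the limma fit over both ages. Black circles mark adjusted p under 0.05. All 18 mevalonate and sterol enzymes are right of 0 in hearing rats, and 13 of the 18 are in deaf rats.

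The change of the portion difference with deafness was tested directly as an interaction. It was below 0 for 25 of the 29 genes and for all 18 enzymes, with a median of -0.22 over the 29, against -0.02 for all genes, of which 54.8% were below 0. None of the 29 passed the test, and no gene of the table did (0%). At an unadjusted limma p under 0.05 there were 2, Fads2 at -0.74 ± 0.30 and Tm7sf2 at -0.63 ± 0.27 (6.90%), against 0.504% of all genes. The count of enzymes below 0 fell to 15 without P32 hearing apex replicate 1 and to 14 on the 16-sample platform alone. This interaction uses the same hearing samples as the hearing portion difference above, so the counts of the interaction do not stand apart from it.

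Markers of central glia differed between the same portions. Oligodendrocyte markers (7 of 8 measured) had a median base-minus-apex difference of 2.67 in hearing and 2.58 in deaf rats, with all 7 above 0 and 5 and 4 passing the test. Their summed intensity was 4893 to 7991 in the P60 hearing apex and 32429 to 44460 in the P60 hearing base, and 9352 to 22523 against 40337 to 47826 in the P60 deaf portions. At P32 it was 9712 to 37392 against 37889 to 45202 in hearing rats and 11752 to 18991 against 35079 to 52595 in deaf rats. Astrocyte markers (4 of 4) had medians of 1.91 and 2.13, with 3 and 4 passing. Their sums at P32 were 3224 to 31338 against 11671 to 17714 in hearing rats, where apical replicate 1 lay above every basal sample, and 3900 to 6652 against 11733 to 26959 in deaf rats. Their sums at P60 were 1181 to 3328 against 14366 to 19845 in hearing rats and 2343 to 7388 against 29276 to 34516 in deaf rats. Schwann cell markers (13 of 14) had medians of 0.01 and -0.16, and neuron markers (11 of 11) of -0.29 and -0.26, with none passing in either case. Macrophage markers (9 of 9) had medians of 0.76 and 0.32 with none passing. At P60 macrophage sums in hearing rats were 24985 to 28966 in the apex and 47907 to 74757 in the base. In deaf rats they were 70011 to 83851 and 90365 to 114706. At P32 the macrophage sums of the portions overlapped in hearing and in deaf rats. Among adipocyte markers (6 of 7), with medians of 0.26 and 0.21, Fabp4 was the 1 that passed in both. Fibroblast markers (4 of 6), hair cell markers (4 of 6), red blood cell markers (2 of 4) and skeletal muscle markers (4 of 4) had medians of 0.26, -0.21, 0.04 and 0.50 in hearing rats, with none passing. Fibroblast sums in hearing rats were 107508 to 121027 in the apex and 124007 to 142550 in the base at P32. At P60 they were 95837 to 113002 and 138093 to 143507. In deaf rats the fibroblast sums of the portions overlapped at both ages. The part of these cells in the difference of the synthesis genes was not tested. In these bulk samples fewer cells of a type and less RNA per cell cannot be told apart.

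**Figure D4:**
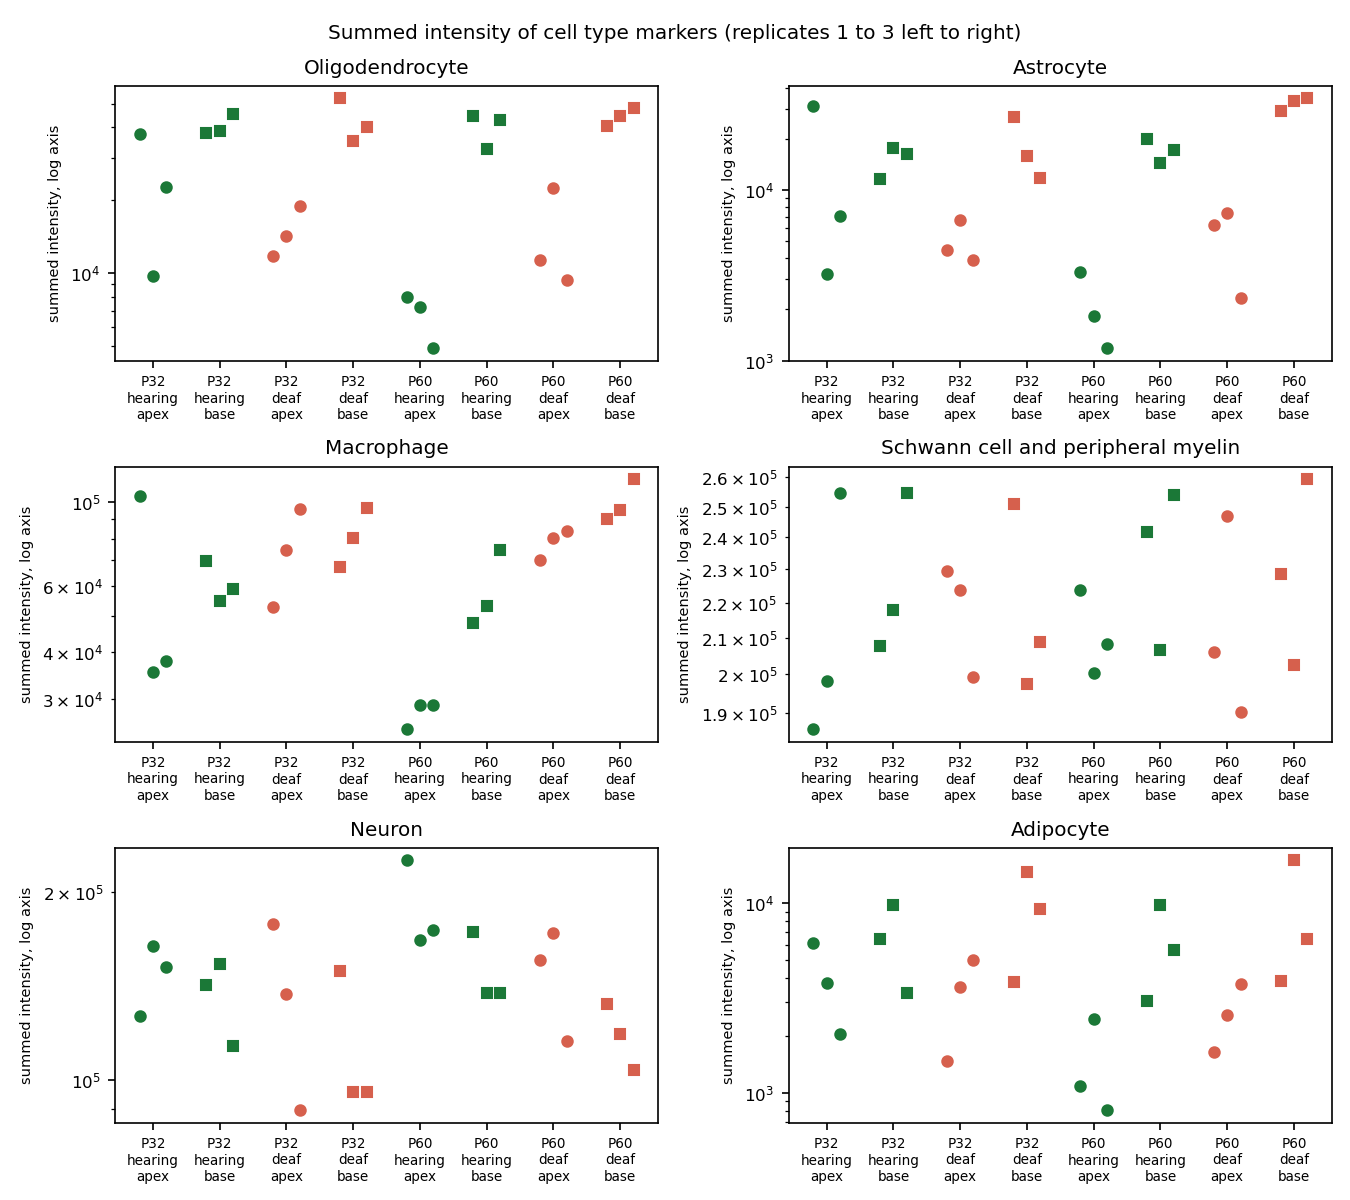
Summed intensity (log axis) of the measured markers of oligodendrocytes, astrocytes, macrophages, Schwann cells, neurons and adipocytes in each sample, by group, green hearing and red deaf, circles apex and squares base. Oligodendrocyte and astrocyte sums are higher in the base than in the apex at P60 in both hearing and deaf rats, and Schwann cell sums stay between 185834 and 259235.

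At P60 most mevalonate and sterol enzymes had lower means in deaf than in hearing ganglia, and none passed the test. Over both portions 16 of the 18 had a difference below 0, with a median of -0.30, whereas 45.4% of all genes were below 0 and their median was 0.04. The 7 mevalonate enzymes were all below 0. None of the 29 genes passed, against 1.34% of all genes, and at an unadjusted limma p under 0.05 there were 4 (13.8%), against 12.3% of all genes. The interaction with age was not called for any of the 29 either, and for no gene of the table (0%).

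The values below 0 were larger in size in the base, though the difference between portions was tested only over both ages, as above. In the P60 base all 18 enzymes were below 0, from -0.91 to -0.04, with a median of -0.42, against a median of 0.03 and 45.6% of genes below 0. In the pairs of replicates 1, 2 and 3, 18, 17 and 18 of the 18 were lower in the deaf base, against 45.5%, 46.0% and 48.6% of all genes. The mean of the 18 was 12.58, 12.21 and 12.66 in the hearing base and 12.09, 11.76 and 12.26 in the deaf base. The groups overlapped by these means, since the deaf replicate 3 lay above the hearing replicate 2. None of the 29 genes passed in the base, against 0.0696% of all genes, and 2 had an unadjusted limma p under 0.05 (6.90%, against 2.94%). The count of enzymes below 0 was 14 without P60 deaf base replicate 2. In the P60 apex 11 of the 18 were below 0, with a median of -0.07. The P60 hearing base samples also enter the hearing portion difference and the interaction above, so the counts in the P60 base do not stand apart from those.

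Idi1 and Tm7sf2 were the genes with the smallest p in the P60 base. Idi1 read 13.33, 13.22 and 12.84 in the hearing base and 12.63, 12.59 and 11.86 in the deaf base, with no overlap. In the apex it read 12.77, 12.87 and 12.47 against 12.85, 11.97 and 12.79, which overlapped. Its difference was -0.77 ± 0.24 in the base (limma adjusted p = 0.929) and -0.47 ± 0.17 over both portions (limma adjusted p = 0.232). Tm7sf2, whose P60 values are given above, did not overlap between the hearing and deaf base and differed by -0.91 ± 0.27 there (limma adjusted p = 0.79) and by 0.15 ± 0.27 in the apex.

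Hsd17b7 and Fdps, which makes farnesyl diphosphate, had lower means in the deaf samples of both portions without passing. Over both portions Hsd17b7 had a median of 12.85 in the 6 hearing samples (11.91 to 12.87) and of 12.11 in the 6 deaf ones (11.40 to 12.62), a difference of -0.62 ± 0.25 (limma adjusted p = 0.300). Fdps had medians of 13.42 (13.18 to 13.96) and 13.08 (12.85 to 13.47), a difference of -0.41 ± 0.20 (limma adjusted p = 0.405). Both pairs of ranges overlapped. Cyp51 differed by -0.35 ± 0.26 and Sqle by -0.41 ± 0.23, while Dhcr7 and Ebp, a sterol isomerase, were the 2 of the 18 above 0, at 0.18 ± 0.34 and 0.26 ± 0.37.

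**Figure D5:**
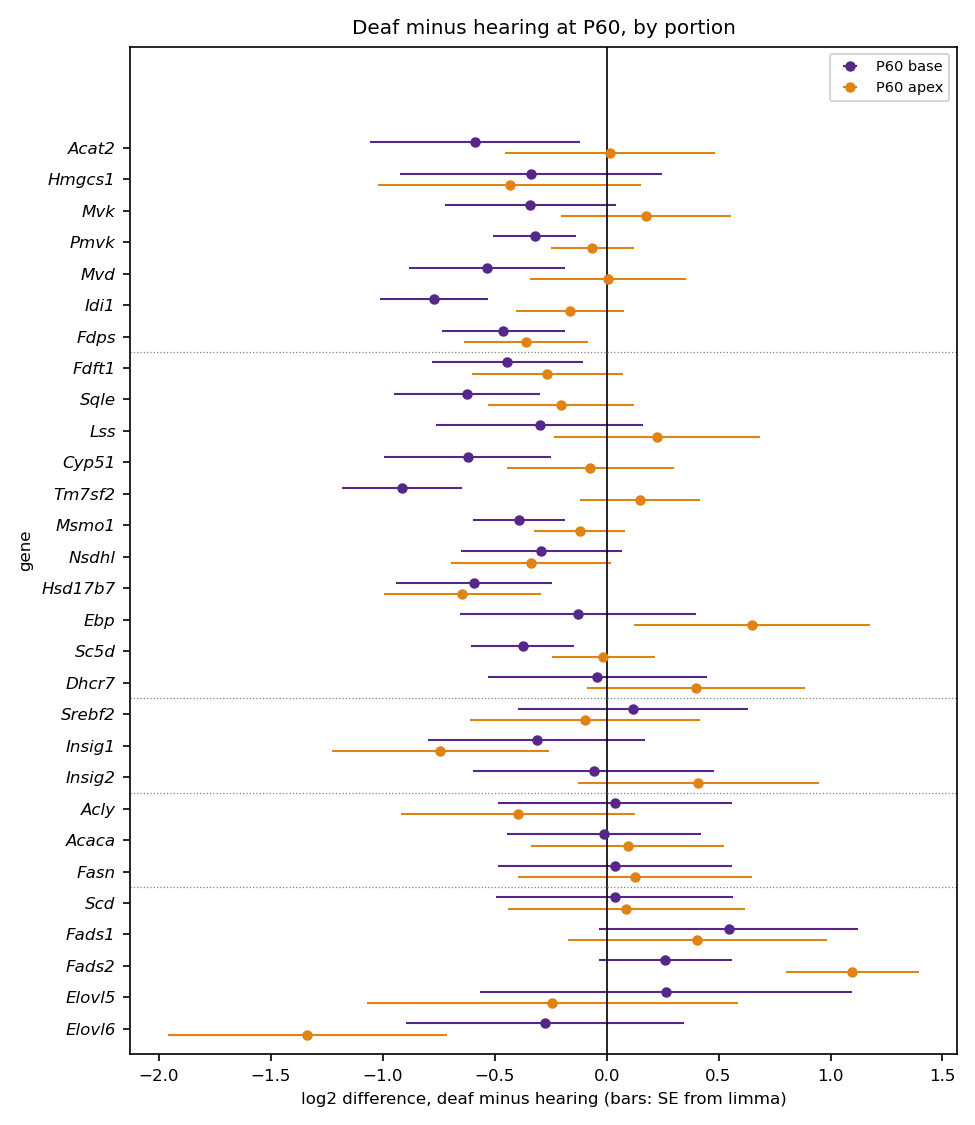
Deaf minus hearing log2 difference at P60 with its SE for each of the 29 genes, in the base (purple) and the apex (orange). No gene passes the limma test. All 18 mevalonate and sterol enzymes are left of 0 in the base, and Fads2 in the apex (1.10) and Elovl6 in the apex (-1.34) lie farthest out.

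Fads2 and Elovl6 had the largest values of opposite sign in the P60 apex. Fads2 read 8.19, 8.11 and 8.08 in the hearing apex and 9.09, 9.50 and 9.08 in the deaf apex, with no overlap. The difference was 1.10 ± 0.30 and did not pass (limma adjusted p = 0.122, with 0.504% of genes called), but it passed without P32 hearing apex replicate 1, a sample outside this pair of groups that enters the shared spread (1.10, limma adjusted p = 0.0023, with 2.03% of genes called). Over both portions it was 0.68 ± 0.21 (limma adjusted p = 0.142), and 0.0036 without that sample, with 2.97% of genes called. Elovl6 read 11.59, 11.67 and 11.38 in the hearing apex and 10.84, 10.36 and 9.43 in the deaf apex, with no overlap, a difference of -1.34 ± 0.62 (limma adjusted p = 0.519). In the base it read 11.15, 11.30 and 11.14 against 10.61, 11.21 and 10.95, which overlapped.

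Other cell markers differed between the same P60 groups. Macrophage markers had a median difference of 1.27 with 6 of 9 passing, and their sums were 24985 to 28966 in the hearing apex, 70011 to 83851 in the deaf apex, 47907 to 74757 in the hearing base and 90365 to 114706 in the deaf base. Neuron markers had a median of -0.39 with all 11 below 0 and none passing. Their sums were 137682 to 172913 in the hearing base and 103801 to 132186 in the deaf base. Schwann cell markers had a median of -0.02, oligodendrocyte markers of 0.55 and astrocyte markers of 0.57, with none passing. Hair cell markers (4 of 6) had a median of -0.82 with none passing. Skeletal muscle markers (4 of 4) had a median of -0.59, and Myl1 among them fell by 2.45 ± 0.37 (limma adjusted p = 0.00188). Their sums were 6205 to 7888 in the hearing apex, 1242 to 3620 in the deaf apex, 4316 to 7161 in the hearing base and 1393 to 1775 in the deaf base. The part of any of these cells in the values of the synthesis genes was not tested.

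At P32 most enzymes also had lower means in deaf than in hearing ganglia, by smaller amounts, and none passed. Of the 18 mevalonate and sterol enzymes 15 were below 0, with a median of -0.11, against 55.2% of all genes. In the P32 base 16 were below 0 with a median of -0.20, and in the P32 apex 9. The median over the 29 genes was -0.09, against -0.02 over all genes, and it was 0.27 within the 8-sample platform and -0.31 within the 16-sample platform, so its direction differed between them. None of the 29 passed, against 0.0174% of all genes. Scd, the desaturase that makes oleate, was the gene with the smallest p. It read 8.57, 9.75 and 8.50 in the hearing apex and 10.15, 10.85 and 11.11 in the deaf apex, and 8.95, 9.58 and 8.75 in the hearing base and 9.43, 10.53 and 10.47 in the deaf base. The apical groups did not overlap, the basal groups did, and the deaf sample was higher in all 6 pairs, as it was for 2.02% of all genes. The difference was 1.41 ± 0.37 (limma adjusted p = 0.386), and 1.03 and 1.60 within the platforms of 8 and 16 samples. Fads2 at P32 differed by 0.36 ± 0.21, and by 0.63 without P32 hearing apex replicate 1, where it passed (limma adjusted p = 0.033, with 0.661% of genes called). In the P32 apex it was 1.23 without that sample (limma adjusted p = 0.016, with 0.191% of genes called).

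At P60 the difference in Scd was 0.06 ± 0.37. It read 8.60, 8.91 and 8.12 in the hearing apex, 8.39, 8.50 and 9.0 in the deaf apex, 8.86, 9.99 and 8.27 in the hearing base and 8.69, 10.57 and 7.98 in the deaf base, all overlapping. The change of its deafness effect from P32 to P60 was -1.35 ± 0.53, which did not pass. It was the 1 of 29 genes with an unadjusted p under 0.05 there (3.45%, against 2.07% of all genes). The comparisons of age below use the same deaf and hearing samples, so they do not stand apart from these values.

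Between P32 and P60 in deaf rats, 15 of the 18 mevalonate and sterol enzymes were lower at P60. The median over the 29 genes was -0.17, against 0.05 over all genes, of which 42.6% were below 0. None of the 29 passed, against 0.104% of all genes, and 7 had an unadjusted limma p under 0.05 (24.1%, against 4.92%). Tm7sf2 differed by -0.82 ± 0.19 (limma adjusted p = 0.194) and Scd by -1.57 ± 0.37 (limma adjusted p = 0.214). With replicate number as a block these 2 passed, at adjusted p of 0.0355 and 0.0402, against 0.243% of all genes. Idi1 differed by -0.65 ± 0.17 (limma adjusted p = 0.350), from a median of 13.09 in the 6 P32 deaf samples (12.83 to 13.38) to 12.61 in the 6 P60 ones (11.86 to 12.85). Hsd17b7 went from 12.77 (12.42 to 13.00) to 12.11 (11.40 to 12.62), a difference of -0.72 ± 0.25. For both the ranges overlapped slightly. Lss, Tm7sf2, Hsd17b7, Sc5d and Fads2 were lower at P60 in all 6 pairs (17.2%, against 3.11% of all genes).

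In hearing rats the same interval gave a median of -0.03 and no call, against 0.087% of all genes. At an unadjusted p under 0.05 there were 3 of 29 (10.3%, against 7.25%). Fads2 differed by -0.75 ± 0.21 (limma adjusted p = 0.400), Tm7sf2 by -0.65 ± 0.19 (limma adjusted p = 0.440) and Lss, the lanosterol synthase, by -0.78 ± 0.33 (limma adjusted p = 0.643). Lss had a median of 10.71 in the 6 P32 hearing samples (9.65 to 11.44) and of 9.63 in the 6 P60 ones (9.38 to 10.53), which overlapped. Mvk, Pmvk, Idi1, Tm7sf2 and Fads2 were lower at P60 in all 6 pairs (17.2%, against 5.15% of all genes). Mvk, the mevalonate kinase, had medians of 11.50 (10.96 to 11.83) and 10.91 (10.42 to 11.77). Insig1 was higher at P60 in all 6 (3.45%, against 8.37%), with 0.61 ± 0.34, and Nsdhl, a sterol dehydrogenase, differed by 0.52 ± 0.25 from a median of 12.99 (12.59 to 13.56) to 13.61 (13.04 to 13.99).

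The 29 genes differed in how much of their variance lay between groups and between replicate numbers. Group took a median of 26.0% of a gene's variance and replicate number 31.0%, against 21.8% and 40.1% over all genes. Tm7sf2 had 83.6% between groups, the highest of the 29, and Insig2 6.44%, the lowest. Replicate number took 80.6% for Insig2 and 0.743% for Fads2.

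Genes of neighbouring lipid pathways were read from 6 further lists. Other synthesis and SREBP processing genes (6 of 11 measured) had a median of 0.09 between the hearing portions and -0.15 between deaf and hearing at P60, and none passed in either comparison. Sterol uptake genes (9 of 14) had medians of 0.12 and 0.38 and none passed. Of 9 measured genes of 13 in sterol efflux and oxysterol metabolism, all 9 were above 0 at P60 with a median of 0.51, and Abca1, which exports cholesterol, rose by 1.53 ± 0.26 (limma adjusted p = 0.00598, with 1.34% of genes called). Abca1 averaged 9.64 ± 0.89 in the hearing apex, 11.18 ± 0.21 in the deaf apex, 9.99 ± 0.90 in the hearing base and 11.51 ± 0.52 in the deaf base (SD, n = 3).

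Among other fatty acid synthesis genes (16 of 26, with medians of -0.0046 between the hearing portions and -0.05 at P60), Thrsp, a regulator of lipogenesis in liver and fat, was higher in the base. It rose by 2.09 ± 0.36 in hearing rats (limma adjusted p = 0.0068) and by 2.13 ± 0.36 in deaf rats (limma adjusted p = 0.0028). Me1, which supplies NADPH, rose by 0.71 ± 0.14 in the deaf base (limma adjusted p = 0.0094) and differed by 0.28 ± 0.14 in hearing rats. Myelin sphingolipid genes (5 of 9) had a median of 0.12 between the hearing portions and none passed there or at P60. Of oxidation and storage genes (15 of 15, with medians of 0.08 and 0.05), the fatty acid carrier Fabp7 rose by 1.59 ± 0.29 in the hearing base (limma adjusted p = 0.0107) and Fabp5 by 0.86 ± 0.18 in deaf rats at P60 (limma adjusted p = 0.0164).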

How the data were processed

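Spiral ganglion RNA from 24 samples was measured on NimbleGen 1-colour arrays. Per the submitters' processing notes and the labels, the authors normalized the arrays with RMA, averaged technical replicates and deposited linear intensity values, in 1 table of 14138 transcripts kept as expressed and in whole-array tables of 26419 transcripts. The sources used here do not say whether the platforms were normalized together. Intensities shared by the tables differed by at most 0.002.

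Here log2 intensity was computed and the transcript with the highest mean stood for its gene, so that 5828 named transcripts gave 5750 genes. Gene names came from RefSeq through the deposited accessions. The fits used limma 3.58.1 under R 4.3.3 (lmFit and eBayes, 8 group means and platform, 15 residual degrees of freedom, two-sided, Benjamini-Hochberg over 5750 genes, or over 9627 whole-array genes for Acaca). The model was run on simulated data with independent samples and no platform effect. That check therefore does not cover how the fit handles platform or portions that vary together. The labels do not say that replicates of a number share animals or litters, and p-values measure the spread between these pools.

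Deviations from group means of same-numbered samples correlated at 0.54 to 0.88 between apex and base in hearing rats and 0.85 to 0.92 in P32 deaf rats. These portions were treated as paired only in the pair counts and in the fits with a block. The main fit held no term for pairing, so its SEs and p-values treat apex and base as separate samples. P60 deaf portions (-0.02 to 0.68) and deaf and hearing in the P60 apex (-0.09 to 0.48) did not meet the criterion. Deaf and hearing correlated at 0.28 to 0.81 at P32 and 0.80 to 0.84 in the P60 base. Between ages it was 0.33 to 0.76 in deaf and 0.20 to 0.63 in hearing rats. Pair counts across ages or hearing status match replicate numbers only, not animals. Platform goes with replicate number and was not removed before these correlations, and its part in them was not tested.

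The 30 genes, the role groups and the further lists were chosen with earlier results of these data known. Values in every sample are given for genes that passed any of the 12 comparisons and for some of those with the smallest p in the main ones. For the others with the smallest p, medians with ranges or differences are given. Other genes are named from the lists where they passed or had among the 2 smallest p. Alternatives covered the gene universe, transforms, renormalization, the platform term, blocks, single platforms and leaving out each sample.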

Additional observations from a re-analysis of the deposited data

How the results depend on the processing

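For the genes that passed or had the smallest p, each in the comparison that selected it, 590 alternative values kept direction and side of the threshold, 11 came to pass, 27 no longer passed, and none changed direction. Only the 3 calls between hearing portions could be lost, since the other results did not pass in the main fit. The call was lost in 13 alternatives and kept in 10 for Fads2 and likewise for Sc5d. For Tm7sf2 it was lost in 1 and kept in 22. Of values for whole comparisons 622 stayed within tolerance (counts within 1.5 times the main count, medians within the spread between replicates) and 38 did not. The number of genes passing between hearing portions was 5 with a replicate block within each age, 8 with paired portions as a random block, 1 on the 16-sample platform alone, 2 after a further quantile normalization, with trended, robust eBayes (both losing Fads2), without the platform term or over the whole-array tables (both losing Sc5d), and 1 to 3 when each sample was left out in turn. Between deaf portions it was 1 with the replicate block within each age and 2 with the random block. From P32 to P60 in deaf rats it was 2 with a replicate block and 0 to 1 when samples were left out, the 1 being Scd without P60 deaf base replicate 2 (-1.91, limma adjusted p = 0.0228). Leaving out P32 hearing apex replicate 1 gave 1, Fads2, in deaf against hearing at P32, in the P32 apex, at P60 and in the P60 apex, where the range was 0 to 1. The replicate block changed no other call, and the block within each age gives no value between ages. The median over the 29 genes between hearing portions was 0.19 on the 16-sample platform and 0.17 to 0.42 with samples left out. From P32 to P60 in deaf rats it was -0.21 after a further quantile normalization and -0.29 to -0.035 with samples left out. It was -0.50 in the P32 base on the 16-sample platform and -0.44 to -0.20 in the P60 base with samples left out. Counts of the 18 enzymes by sign were added after seeing the data. They were 16 to 18 above 0 between hearing portions, 14 to 17 below 0 at P60, 14 to 18 in the P60 base and 14 to 18 for the interaction. The cause of these changes was not tested. Background signal was not read here, so signal over background was not assessed.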
